A study of Mus musculus with 9 samples.

Results

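Wnt proteins are secreted, lipid-modified ligands that bind Frizzled receptors together with the co-receptors LRP5 and LRP6. The bound receptors recruit Dishevelled proteins and disable a destruction complex of AXIN, APC and GSK3B, so that CTNNB1 (β-catenin) accumulates and acts with TCF/LEF factors on target genes. In liver, Wnt ligands and R-spondins from endothelial and stromal cells maintain the gene program of hepatocytes around the central vein, and mutations of CTNNB1 or AXIN1 occur in hepatocellular carcinoma. The genes described here are the protein-coding Wnt, Fzd, Sfrp, Dkk and Rspo genes of the deposited table and 16 named genes. The named genes are Porcn, Wif1, Lgr4 and genes of the receptor complex, the cytoplasmic core and the TCF/LEF family. Both sets were chosen by symbol, which gave 32 of the 16755 genes of the table, 17 by family name and 15 of the 16 named genes. Lef1 was not analysed here.

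Polyadenylated RNA of whole liver tissue was sequenced from 3 groups of 3 C57BL/6 mice. In Scd2f/f mice an exon of Scd2 is flanked by loxP sites, and Scd2f/f;Col1a1-Cre (Scd2f/f;CC) mice also carry a Cre recombinase under the Col1a1 promoter, which is active in stellate cells and portal fibroblasts, so that Scd2 is left intact in cells that never used this promoter. Male Scd2f/f and Scd2f/f;CC mice were given 10 mg/kg of the hepatic carcinogen diethylnitrosamine (DEN) when 2 weeks old and a liquid Western alcohol diet (WAD) from 6 weeks on, for 4 months by the labels and for longer by the paper. The third group was untreated Scd2f/f mice (control liver), so the floxed allele is shared by all 3 groups. The paper describes the treated tissue as tumor-adjacent liver (TAL) that can hold microscopic tumors, whereas the labels call it liver.

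The deposited table gives 1 value per gene and group, the authors' least-squares mean of upper quartile normalized read counts. Means of 16755 genes ran from 0.0348 to 76300, with a 75th percentile of 15.4 to 15.5 in each group. Single mice have no values of their own here, so no error, test or interval is given, the depth is unknown, and every ratio below is a quotient of the authors' means, which may be arithmetic or geometric. The targeted gene, Scd2, a fatty acid desaturase, had a mean of 2.46 in control liver, 6.47 in Scd2f/f TAL and 1.87 in TAL of Scd2f/f;CC mice, a ratio of 0.289 between both TAL groups. The 7 hepatocyte markers such as Alb, Ttr and Cps1 summed to 32500, 29500 and 33200 in the same order, of which Alb alone gave 21300, 20900 and 22700. In Scd2f/f TAL 6 of the 7 were lower than in control liver, with Apoa1 lowest at a ratio of 0.611. Between the TAL groups 6 were higher in Scd2f/f;CC TAL, and Hnf4a was lower at 0.930. All 7 macrophage markers were at least 2-fold above control liver in both TAL groups. Fewer cells of a type and less RNA per cell cannot be told apart in such bulk tissue.

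Of the 32 genes, 24 had a mean of at least 1 over the 3 groups and 8 had a lower mean. These 24 genes differed little between the groups in most cases. Between Scd2f/f TAL and control liver, 21 of the 24 stayed within 1.5-fold (21.4% of the 11784 genes of the table whose mean reached 1 did not), 0 were at least 2-fold higher and 1, Wnt5b, was at least 2-fold lower. Among these 11784 genes, called all genes from here on, 6.40% were at least 2-fold higher and 2.89% at least 2-fold lower in that comparison. Between the TAL groups, 22 of the 24 stayed within 1.5-fold of Scd2f/f TAL (7.22% of all genes did not), Fzd8 was at least 2-fold higher and Dkk3 at least 2-fold lower, beside 0.645% and 1.54% of all genes. Between Scd2f/f;CC TAL and control liver, 21 of the 24 stayed within 1.5-fold (18.6% of all genes did not), 1 was at least 2-fold lower, again Wnt5b, and 0 were at least 2-fold higher, beside 2.55% and 4.51% of all genes. Counts of 0 or 1 of 24 are too small to set apart from these shares. The median log2 ratio of the 24 genes was 0.03, 0.00 and 0.19 in the 3 comparisons, and that of all 11784 genes was 0.03, 0.01 and 0.04.

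**Figure D1:**
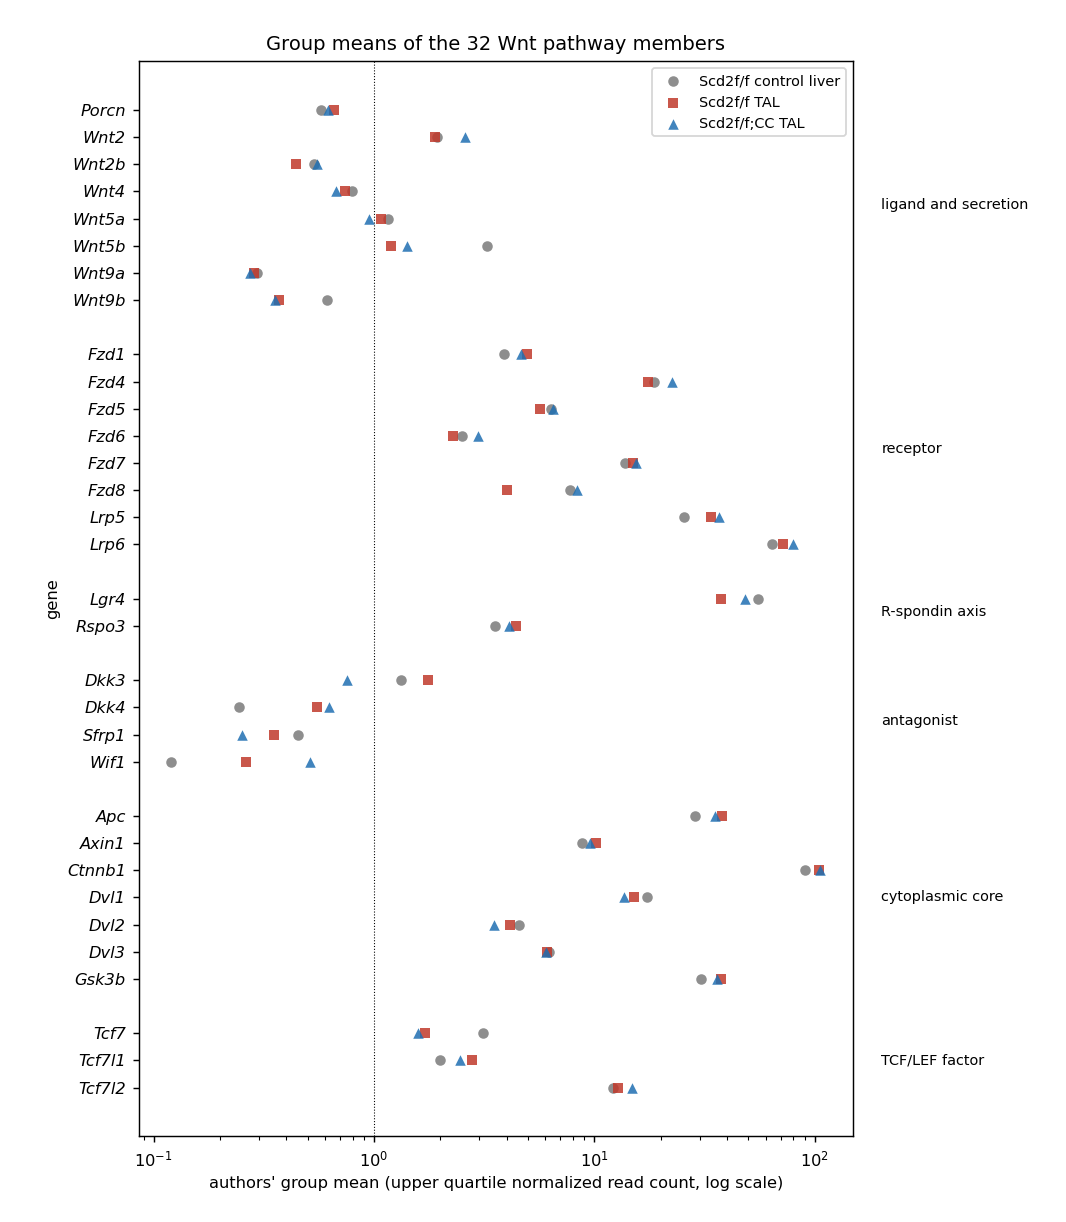
Authors' group means (upper quartile normalized read count, log scale) of the 32 genes, ordered by role, with circles for Scd2f/f control liver, squares for Scd2f/f TAL and triangles for Scd2f/f;CC TAL. The dotted line marks a mean of 1. Most triplets lie close together, and Wnt5b, Fzd8, Dkk3 and Tcf7 have the widest triplets among genes whose mean reached 1.

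Among ligands, Wnt5b, Wnt2 and Wnt5a reached a mean of 1. Wnt5b, a ligand best known for signaling that does not use CTNNB1, had a mean of 3.26 in control liver, 1.19 in Scd2f/f TAL and 1.41 in TAL of Scd2f/f;CC mice. Control liver was thus the high group, and both treated groups lay near each other irrespective of the Cre transgene. Wnt5b was 2.74-fold lower in Scd2f/f TAL than in control liver (log2 ratio of -1.45). Of all genes with a mean of at least 1, 4.85% had a ratio at least as far from 1. Among genes with a mean from 1 to 5, the range of Wnt5b, 3.83% were at least 2-fold lower in that comparison and 16.0% differed by at least 2-fold in either direction. The ratio between the TAL groups, here and below Scd2f/f;CC over Scd2f/f, was 1.18. Its gene spans 119432531 to 119544347 of chromosome 6, minus strand, in GRCm38 (mm10) coordinates. Fbxl14, a protein-coding gene on the other strand, lies within this span. It shares 0 exonic bases with Wnt5b in GENCODE M21 and had means of 4.90, 4.59 and 3.98 in control liver, Scd2f/f TAL and Scd2f/f;CC TAL.

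Wnt2, a ligand of the CTNNB1 pathway made by liver sinusoidal endothelial cells, had means of 1.94 in control liver, 1.90 in Scd2f/f TAL and 2.58 in TAL of Scd2f/f;CC mice. Here the Scd2f/f;CC TAL was the high group, with a ratio of 1.36 to Scd2f/f TAL. The 8 endothelial markers, such as Pecam1, Kdr and Stab2, summed to 135, 181 and 181 in the same order of groups. Between the TAL groups they were mixed, with 2 of the 8 higher in Scd2f/f;CC TAL and 6 lower. The higher ones were Kdr at a ratio of 1.15 and Stab2 at 1.07, and Lyve1 was lowest at 0.521. The part of endothelial cells in the values of Wnt2 was not tested. Wnt5a, the close relative of Wnt5b, had means of 1.16, 1.08 and 0.948 in control liver, Scd2f/f TAL and Scd2f/f;CC TAL, all within 1.5-fold of each other. On a scale of group mean per kilobase of the longest coding transcript, the level in control liver was 1.37 for Wnt5b, 0.860 for Wnt2 and 0.165 for Wnt5a. In Scd2f/f TAL the order was Wnt2 at 0.843, Wnt5b at 0.502 and Wnt5a at 0.154 per kilobase, so Wnt2 was ahead of Wnt5b in both TAL groups.

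The other ligands, Wnt2b, Wnt4, Wnt9a and Wnt9b, and Porcn, the acyltransferase that lipidates Wnt proteins, each had a mean under 1 and are named here although no ratio passed 2-fold. Wnt9b, a ligand known from endothelial cells of the central vein, had means of 0.609 in control liver, 0.372 in Scd2f/f TAL and 0.355 in TAL of Scd2f/f;CC mice, ratios of 0.611 and 0.583 to control liver. Wnt2b, Wnt4, Wnt9a and Porcn lay within 1.5-fold in each comparison, with means from 0.274 to 0.791.

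Upstream sequences were examined because Wnt5b, of the 24 genes whose mean reached 1, differed most between control and treated liver. The letters searched, CTTTGA or TCAAAG on the strand of the gene, are a form of the core that TCF/LEF factors recognize, read on both strands. Other forms of the core were not searched, so a window without these letters can still hold one. RefSeq start sites in GRCm38.p6 were found for 20 of the 32 genes, in 25 windows of the 250 bases before a start site. Of these windows 3 held the letters (12.0%), beside 13.8% of the 32851 windows of every gene in the RefSeq table and 11.0% of the 11299 windows of genes whose mean reached 1. They belonged to Wnt5b, Fzd1 and Gsk3b, which are shown with the letters in capitals, 5′ to 3′ on the strand of the gene. The Wnt5b window, on the minus strand at chr6:119449387-119449636, precedes an inner start site and is intronic to the longer transcripts of the gene. The Fzd1 window, on the minus strand at chr5:4758217-4758466, precedes a RefSeq start upstream of the GENCODE M21 gene. The Gsk3b window, on the plus strand at chr16:38088751-38089000, adjoins the first base of the gene.
Wnt5b: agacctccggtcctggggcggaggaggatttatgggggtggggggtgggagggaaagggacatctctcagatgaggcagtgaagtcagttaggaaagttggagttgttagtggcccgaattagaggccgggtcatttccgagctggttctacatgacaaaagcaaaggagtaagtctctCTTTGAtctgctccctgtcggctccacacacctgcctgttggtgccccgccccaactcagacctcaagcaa
Fzd1: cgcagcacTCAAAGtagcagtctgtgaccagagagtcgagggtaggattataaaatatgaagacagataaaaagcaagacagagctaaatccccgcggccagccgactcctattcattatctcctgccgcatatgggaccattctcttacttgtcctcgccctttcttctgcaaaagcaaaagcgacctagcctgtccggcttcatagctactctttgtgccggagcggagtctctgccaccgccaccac
Gsk3b: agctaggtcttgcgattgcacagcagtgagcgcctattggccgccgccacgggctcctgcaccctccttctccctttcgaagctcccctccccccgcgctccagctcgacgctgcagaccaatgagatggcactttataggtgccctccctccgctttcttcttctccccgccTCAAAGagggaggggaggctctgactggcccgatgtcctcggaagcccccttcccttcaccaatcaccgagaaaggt
The letters begin 71 bases before the start site of Wnt5b, 242 before that of Fzd1 and 77 before that of Gsk3b. Only Wnt5b of these 3 differed by 2-fold in any comparison, while the ratios of Fzd1 and Gsk3b lay between 0.945 and 1.26. The other Wnt5b start sites in the table, of 3 in all, and those of Tcf7 and Lgr4 had no such letters in their windows. Fzd8 and Dkk3, which passed 2-fold between the TAL groups, were not among the 20 genes with a window and were not searched.

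Of the receptors, Fzd8 was alone past 2-fold, and the other 7 stayed within 1.5-fold in each comparison. All 6 Fzd genes of the table and both co-receptor genes had a mean of at least 1. Fzd8, a Frizzled receptor, had a mean of 7.72 in control liver, 4.02 in Scd2f/f TAL and 8.38 in TAL of Scd2f/f;CC mice. The Scd2f/f TAL was the low group, and Scd2f/f;CC TAL and control liver lay near each other. Fzd8 had a ratio of 0.521 (log2 of -0.94) between Scd2f/f TAL and control liver and of 2.08 (log2 of 1.06) between the TAL groups. In the second comparison, 1.82% of all genes whose mean reached 1 had a ratio at least as far from 1, and in the first 10.3%. Both ratios share the mean of Scd2f/f TAL and are not independent of each other. Fzd8 lies on chromosome 18 from 9212856 to 9216201 in the table, a span of 3346 bases, and its transcript in GENCODE M21 is longer, at 5974 bases.

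Fzd4, a receptor known from endothelial cells, had means of 18.7, 17.5 and 22.4 in control liver, Scd2f/f TAL and Scd2f/f;CC TAL, and Fzd6 had 2.52, 2.28 and 2.95. Fzd5 had 6.33 in control liver, 5.66 in Scd2f/f TAL and 6.48 in TAL of Scd2f/f;CC mice. Fzd4, Fzd5 and Fzd6 thus had the same order of groups as Fzd8, with Scd2f/f TAL lowest and Scd2f/f;CC TAL highest, at ratios between the TAL groups of 1.14 to 1.29. Gm38058 on the other strand shares 1233 of the 6915 exonic bases of Fzd5, so part of the Fzd5 reads is uncertain. Scd2f/f TAL was the lowest of the 3 groups for 29.2% of the 24 genes and for 30.5% of all genes with a mean of at least 1, so it was lowest about as often as in the table at large. Fzd7 had means of 13.8, 14.9 and 15.4 and Fzd1 of 3.91, 4.93 and 4.66, in the order control liver, Scd2f/f TAL and Scd2f/f;CC TAL.

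Lrp6, a co-receptor that is phosphorylated upon Wnt binding, had means of 63.8 in control liver, 71.5 in Scd2f/f TAL and 79.6 in TAL of Scd2f/f;CC mice. Lrp5, its paralog, had 25.4, 33.7 and 36.9. For both genes control liver was lowest and Scd2f/f;CC TAL highest, with ratios between the TAL groups of 1.11 for Lrp6 and 1.09 for Lrp5. All 8 receptor genes had a higher mean in Scd2f/f;CC TAL than in control liver, at ratios of 1.02 to 1.45, where 54.3% of all genes with a mean of at least 1 did.

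**Figure D2:**
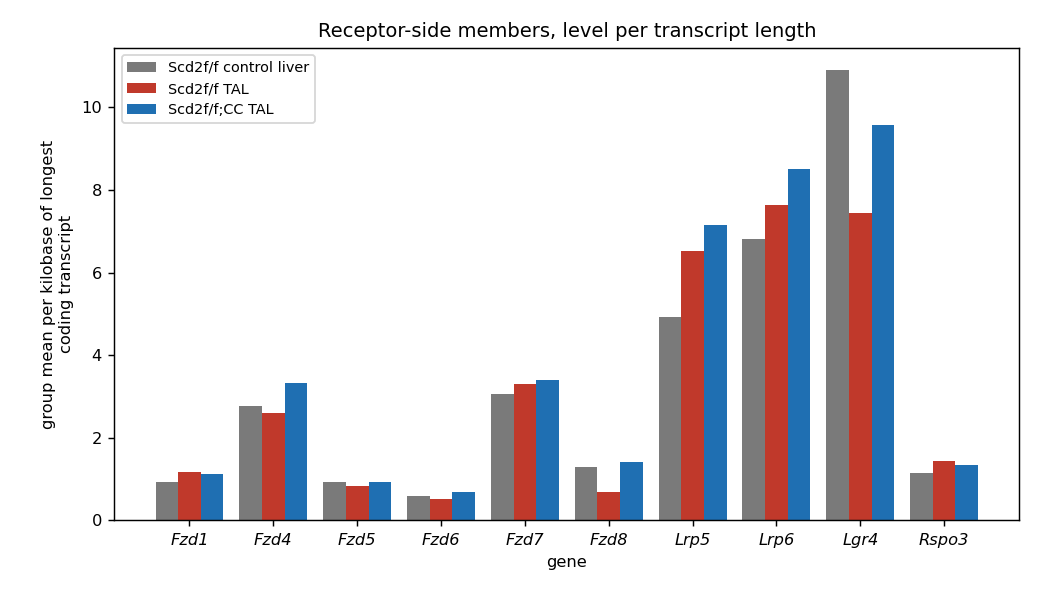
Authors' group mean divided by the length in kilobases of the longest coding transcript in GENCODE M21 (y axis), for Frizzled receptors, co-receptors, Lgr4 and Rspo3 (x axis), with 1 bar for each group and no error, since single values were not analysed. Lgr4, Lrp6 and Lrp5 are the tallest and Fzd6 is the lowest in each group.

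On the scale of group mean per kilobase, Fzd7 and Fzd4 were ahead of the other Frizzled genes in control liver, at 3.05 and 2.78. Fzd8 followed with 1.29, then Fzd1 with 0.932, Fzd5 with 0.915 and Fzd6 with 0.583. With the shorter span of the deposited table, Fzd8 would be at 2.31 in control liver and 1.20 in Scd2f/f TAL, still below Fzd7 and Fzd4. The co-receptors were above every Frizzled gene, with 6.81 for Lrp6 and 4.92 for Lrp5 per kilobase in control liver. No spread was at hand to say which neighbours in this order differ.

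R-spondins enhance Wnt signaling by binding LGR receptors, which removes the ubiquitin ligases ZNRF3 and RNF43 from Frizzled. Lgr4, an R-spondin receptor, had a mean of 55.2 in control liver, 37.7 in Scd2f/f TAL and 48.4 in TAL of Scd2f/f;CC mice. Scd2f/f TAL was the low group, with a ratio of 0.683 to control liver, and Scd2f/f;CC TAL lay between. The ratio between the TAL groups was 1.28. Rspo3, the R-spondin known from the central vein, had means of 3.54, 4.40 and 4.11 in the same order, within 1.5-fold. Gm48159 on the other strand shares 404 of the 3085 exonic bases of Rspo3, and reads of both genes cannot be told apart without strand.

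Of the secreted antagonists, Dkk3 alone had a mean of at least 1. Dkk3, a divergent member of the Dickkopf family, had a mean of 1.32 in control liver, 1.75 in Scd2f/f TAL and 0.758 in TAL of Scd2f/f;CC mice. The knockout was the low group, 2.31-fold below Scd2f/f TAL (log2 ratio of -1.21) and at a ratio of 0.574 to control liver. Of all genes with a mean of at least 1, 1.27% had a ratio between the TAL groups at least as far from 1. Among genes with a mean from 1 to 5, the range of Dkk3, 3.10% were at least 2-fold lower in that comparison. The 10 markers of stellate cells and fibroblasts, such as Col1a1, Pdgfrb and Dcn, summed to 206 in control liver, 350 in Scd2f/f TAL and 199 in TAL of Scd2f/f;CC mice. Against control liver, 8 of the 9 among them whose mean reached 1 were higher in Scd2f/f TAL. Des was lower there, at a ratio of 0.774, and Acta2, under a mean of 1, had a ratio of 0.945. All 9 whose mean reached 1 were lower in the knockout than in Scd2f/f TAL, 5 of them at least 2-fold. The cholangiocyte markers summed to 58.7, 53.1 and 19.1, with Krt7 at 0.0892 in Scd2f/f;CC TAL. The part of these cells in the lower Dkk3 mean was not tested. Dkk3 lies on chromosome 7 from 112116017 to 112159057, minus strand.

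Dkk4, Wif1 and Sfrp1 had means under 1. Dkk4, an LRP5/6 antagonist and known target of CTNNB1, had means of 0.243 in control liver, 0.553 in Scd2f/f TAL and 0.627 in TAL of Scd2f/f;CC mice. Wif1, which binds Wnt proteins, had 0.120, 0.262 and 0.513. Both were more than 2-fold above control liver in both TAL groups, with ratios of 2.28 and 2.58 for Dkk4 and of 2.18 and 4.28 for Wif1. Among the 4971 genes with a mean under 1, 16.4% were at least 2-fold higher in Scd2f/f TAL than in control liver and 10.9% in Scd2f/f;CC TAL, so such ratios were common at this level. The log2 ratio of Wif1 between Scd2f/f;CC TAL and control liver was 2.10, and 0.43 after adding 1 to both means. Sfrp1, a secreted Frizzled-related protein, had means of 0.452, 0.352 and 0.253, with no ratio past 2-fold.

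**Figure D3:**
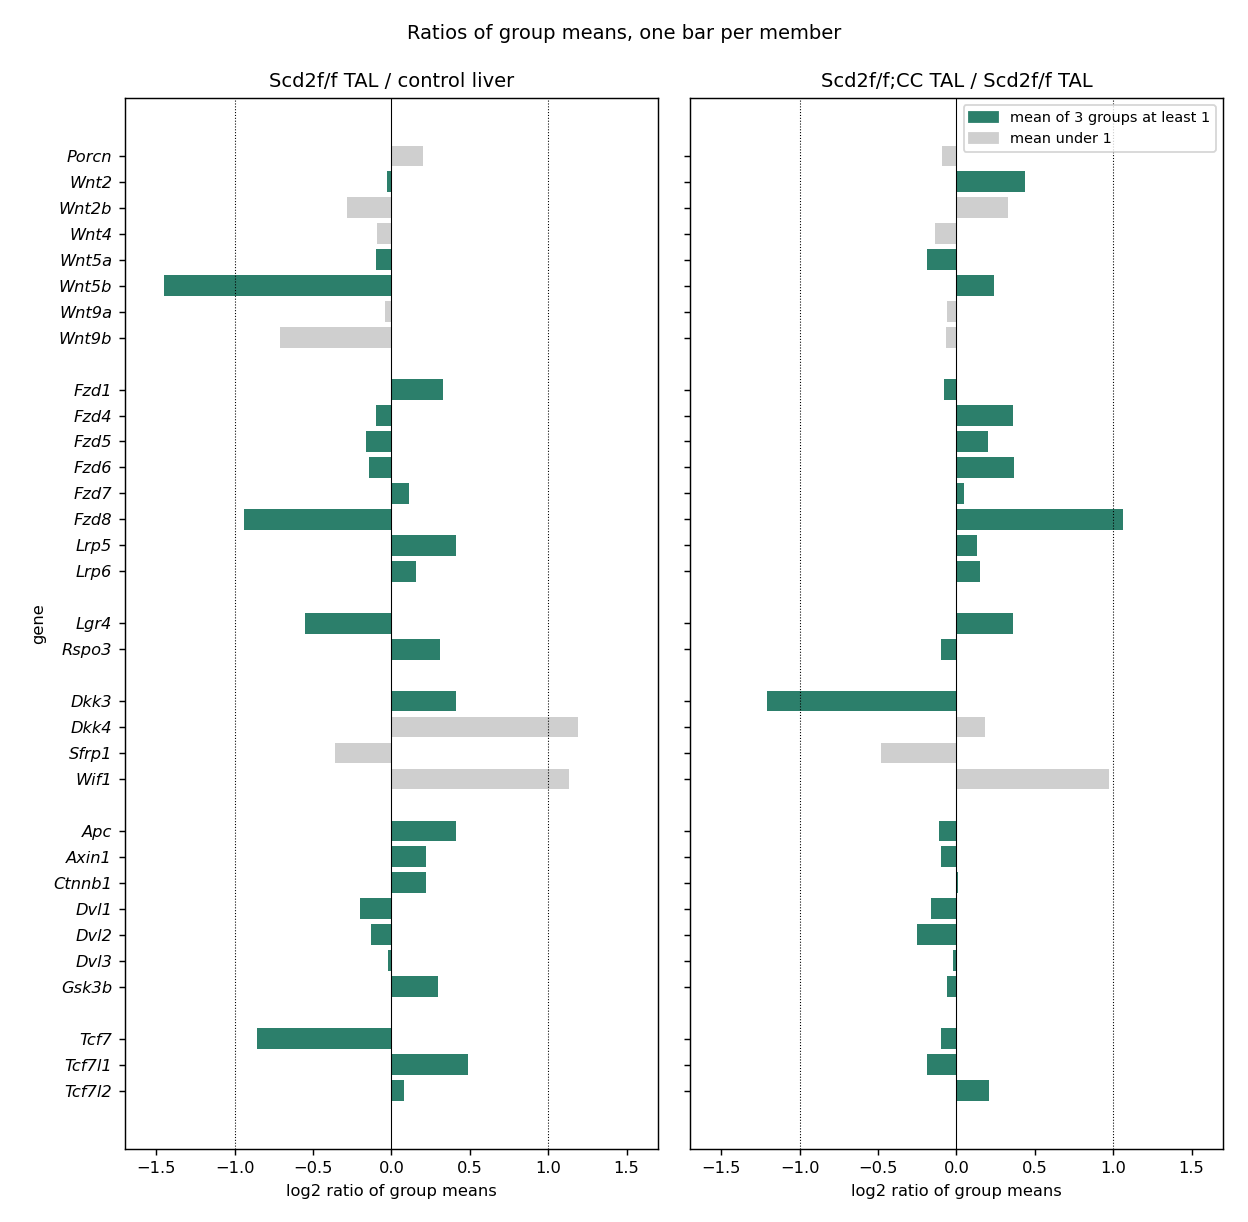
Log2 ratios of authors' group means for the 32 genes, Scd2f/f TAL to control liver on the left and both TAL groups (Scd2f/f;CC over Scd2f/f) on the right. Dotted lines mark a 2-fold difference, grey bars mark the 8 genes with a mean under 1, and both panels share the mean of Scd2f/f TAL. Of the colored bars, Wnt5b crosses a line on the left (-1.45), and Fzd8 (1.06) and Dkk3 (-1.21) on the right.

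The cytoplasmic core was nearly level. Ctnnb1, which encodes β-catenin, had a mean of 89.9 in control liver, 105 in Scd2f/f TAL and 106 in TAL of Scd2f/f;CC mice. Both TAL groups lay just above control liver, and the ratio between them was 1.01. Apc, a scaffold of the destruction complex, had means of 28.6, 38.0 and 35.1, Gsk3b, its kinase, had 30.6, 37.7 and 36.1, and Axin1, its limiting scaffold, had 8.75, 10.2 and 9.54, in the order control liver, Scd2f/f TAL and Scd2f/f;CC TAL. These 3 genes had the same order of groups, with Scd2f/f TAL highest and control liver lowest, at ratios of 1.17 to 1.33 between these groups.

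The Dishevelled genes, which relay the signal from Frizzled, also shared an order, with control liver highest and Scd2f/f;CC TAL lowest. Dvl1 had means of 17.4 in control liver, 15.2 in Scd2f/f TAL and 13.6 in TAL of Scd2f/f;CC mice. Dvl2 had 4.54, 4.15 and 3.50, and Dvl3 had 6.20, 6.12 and 6.05. The lowest of their ratios was 0.771, of Dvl2 between Scd2f/f;CC TAL and control liver. Dvl2 shares 976 of its 5059 exonic bases with Acadvl on the other strand, a fatty acid oxidation gene with means of 141, 161 and 170, so part of the Dvl2 reads is uncertain. Of the 7 core genes, 6 had a lower mean in the knockout than in Scd2f/f TAL, at ratios of 0.843 to 0.989, where 48.4% of all genes did, and Ctnnb1 was the exception.

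Of the TCF/LEF factors, which bring CTNNB1 to its target genes, Tcf7 differed most. It had a mean of 3.11 in control liver, 1.71 in Scd2f/f TAL and 1.59 in TAL of Scd2f/f;CC mice. Control liver was the high group, with ratios to it of 0.550 in Scd2f/f TAL and 0.511 in TAL of Scd2f/f;CC mice, as for Wnt5b, and the ratio between the TAL groups was 0.930. Tcf7 is also known from T cells, and the 7 lymphocyte markers, each with a mean under 1, summed to 1.56, 5.11 and 3.44 in control liver, Scd2f/f TAL and Scd2f/f;CC TAL, higher in both TAL groups. Their part in the Tcf7 values was not tested. Tcf7l1 had means of 1.99, 2.79 and 2.45 and Tcf7l2, the main factor of the family in hepatocytes, had 12.1, 12.8 and 14.8. Per kilobase of the longest coding transcript, the levels in control liver were 3.26 for Tcf7l2, 1.26 for Tcf7 and 0.654 for Tcf7l1. In Scd2f/f TAL, Tcf7l1 at 0.917 per kilobase was above Tcf7 at 0.692.

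A further 73 genes of the pathway were listed by role, and 64 of them were in the table, 55 with a mean of at least 1. Between Scd2f/f TAL and control liver, 1 of the 55 was at least 2-fold higher and 0 at least 2-fold lower, beside 6.40% and 2.89% of all genes. Between the TAL groups, 0 were at least 2-fold higher and 1 lower, beside 0.645% and 1.54% of all genes. Both were Frzb, a secreted Frizzled-related antagonist, with means of 0.841 in control liver, 1.89 in Scd2f/f TAL and 0.640 in TAL of Scd2f/f;CC mice. The ratio of Frzb was 2.25 in the first comparison and 0.339 in the second. Both ratios share the mean of Scd2f/f TAL and are not independent of each other. Scd2f/f TAL was also the only group in which Frzb reached 1, so Frzb passed the filter through its high group. Like those of Dkk3, the values of Frzb had Scd2f/f TAL highest and Scd2f/f;CC TAL lowest. Between Scd2f/f;CC TAL and control liver, Celsr1 was at least 2-fold higher and 0 genes were lower, beside 4.51% and 2.55% of all genes. Celsr1, a cadherin of planar cell polarity, had means of 1.68, 2.30 and 3.80. The median log2 ratio of the 55 genes was 0.06, 0.04 and 0.08 in the 3 comparisons, beside 0.03, 0.01 and 0.04 for all genes.

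By role, the 15 genes of the destruction complex and its kinases lay within 1.5-fold in Scd2f/f TAL over control liver and between the TAL groups. Of all genes, 21.4% and 7.22% did not. In Scd2f/f;CC TAL over control liver 1 of the 15, Frat1, was past 1.5-fold at a ratio of 1.65, beside 18.6% of all genes. The median log2 ratios of the 15 genes were 0.03 in Scd2f/f TAL over control liver and 0.06 between the TAL groups. The 16 nuclear cofactors had medians of 0.14 and 0.04, the 8 genes of secretion and other receptors 0.03 and -0.01, the 7 feedback genes and inhibitors 0.04 and 0.07, and the 9 genes of planar cell polarity 0.10 and -0.07.

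**Figure D4:**
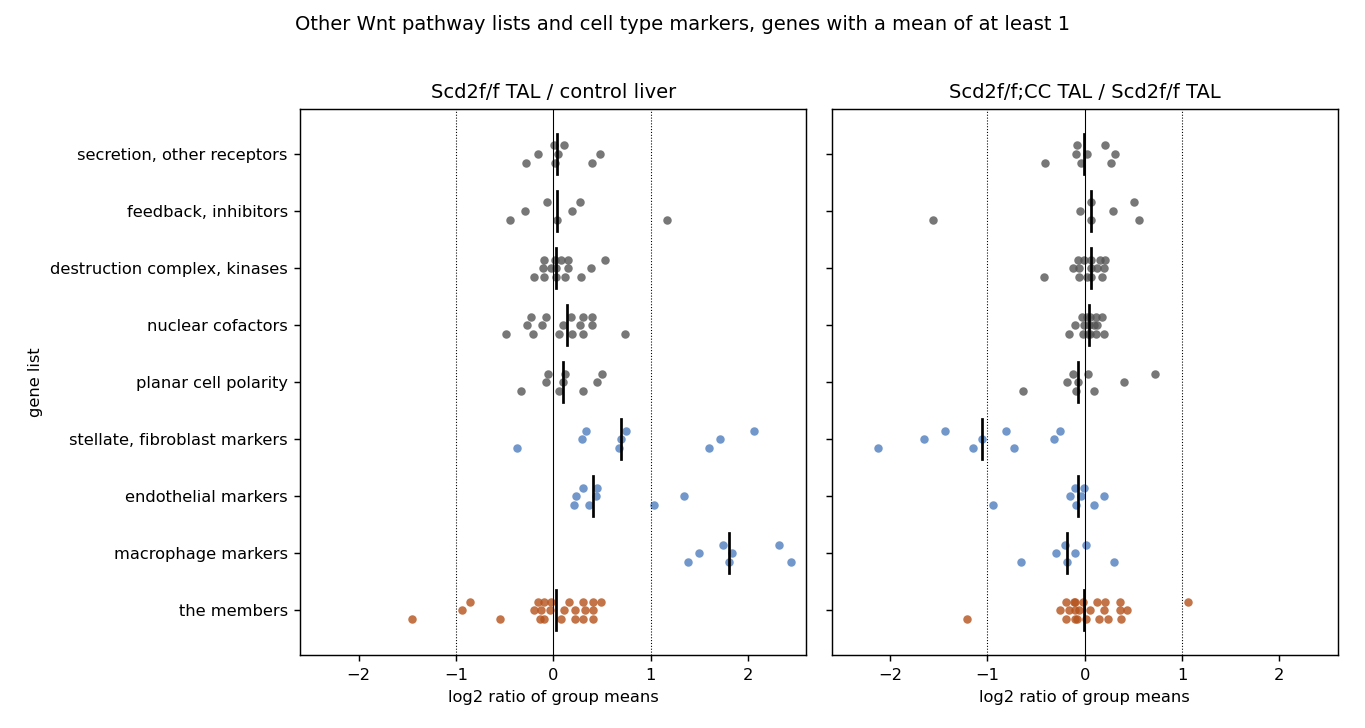
Log2 ratio of authors' group means (x axis) for each gene with a mean of at least 1 in the other Wnt pathway lists (grey), in cell type marker lists (blue) and among the genes described here (orange), with a black line at each median and dotted lines at a 2-fold difference. The pathway lists center near 0 in both panels, while macrophage markers (median 1.81) lie to the right in the left panel and stellate and fibroblast markers (median -1.06) to the left in the right panel. Hepatocyte, cholangiocyte and lymphocyte markers are not drawn. The 3 cholangiocyte markers with a mean of at least 1 had a median of -1.61 between the TAL groups.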

How the data were processed

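RNA was sequenced from liver of 9 mice in 3 groups of 3, mapped to groups by sample titles. Per the submitters' processing notes, STAR 2.6.1, Partek 6 and mm10 were used. The authors quantified genes of Gencode M3 with the Partek E/M method and applied upper quartile normalization. The deposited signal is the authors' least-squares mean of normalized counts per group, with 3 significant digits; they ran Partek Gene Specific Analysis, and the distribution it took for each gene, which decides whether a mean is arithmetic or geometric, is not given in the sources used here. The authors' p-values, false discovery rates, ratios and fold changes for 2 comparisons are also in the table and were not used. Depth is unknown.

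Log2 ratios of the means were computed without a pseudocount in 3 comparisons, which share groups. A gene was counted at a 2-fold limit if its mean over the groups was at least 1. Planned tests on single samples were not possible with 1 mean per group. Members with a mean of at least 1 were all named, others where a ratio passed 2-fold, and Porcn, Wnt2b, Wnt4, Wnt9a, Wnt9b and Sfrp1 were named outside this rule, after their values were seen. The members and gene lists were chosen with earlier results of these data known. Lengths and overlaps came from GENCODE M21, in which all 32 members overlapped the gene of that name, and upstream sequences from RefSeq (GRCm38.p6). Ends in the table were reduced by 1, after which 26 of the 32 members had the start and end of GENCODE M21. Limits of 1.5-fold, filters of none and 5, pseudocounts of 0.1 and 1 and centring on all genes were tried. The counting step was tested on simulated data. Python 3.11.15, NumPy 2.4.6, pandas 2.3.3 and Matplotlib 3.10.9 were used.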

Additional observations from a re-analysis of the deposited data

How the results depend on the processing

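With 1 mean per group, no result has an error, and neither leaving out single mice nor a test was possible. No paired analysis was possible because the table gives group means and no values by replicate number. The counts of genes past 2-fold are small and changed with the settings. Without a filter on the mean, 2 genes in place of 0, Dkk4 and Wif1, were at least 2-fold higher in Scd2f/f TAL and 2 in TAL of Scd2f/f;CC mice than in control liver. With a limit of 1.5-fold, 3 genes in place of 1 were lower than control liver in Scd2f/f TAL and 3 in TAL of Scd2f/f;CC mice. At that limit 8.59% and 7.70% of all genes were lower, so counts of 3 of 24 are too small to set apart from these shares. With a mean of at least 5, 0 genes were at least 2-fold lower in any of the 3 comparisons, beside 2.42%, 0.742% and 2.11% of genes with such a mean. With a pseudocount of 1, 0 genes were at least 2-fold lower in any of them and 0 higher in Scd2f/f;CC TAL than in Scd2f/f TAL. Centred on the median of all genes, 2 genes in place of 1 were at least 2-fold lower in Scd2f/f;CC TAL than in control liver, since Tcf7 then passed the limit. The median log2 ratio of the genes kept (32 without a filter, 14 with a mean of at least 5, otherwise 24) moved by less than 1.5-fold under both filters, both pseudocounts and centring. Fzd8, Dkk3 and Wnt5b kept their side of the 2-fold limit with a pseudocount of 0.1 and with centring.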

Other observations

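Of the other Wnt pathway genes, 9 had a mean under 1. Their mean was lower in Scd2f/f;CC TAL than in TAL of Scd2f/f mice for 6 and higher for 3, where 52.5% of the 4971 genes with a mean under 1 were lower. The order of groups of Dkk3 and Frzb, with Scd2f/f TAL highest and Scd2f/f;CC TAL lowest, was found for 5 of the 9 and for 14.5% of the 4971 genes. Of these, the 3 with a ratio past 2-fold between the TAL groups are named, chosen after their values were seen. Ptk7, a co-receptor of planar cell polarity, had means of 0.546 in control liver, 0.928 in Scd2f/f TAL and 0.384 in TAL of Scd2f/f;CC mice. Gpc3, a glypican known as a marker of hepatocellular carcinoma, had 0.390, 0.915 and 0.322. Vangl2, a membrane protein of planar cell polarity, had 0.218, 0.597 and 0.210. The ratios between the TAL groups, Scd2f/f;CC over Scd2f/f, were 0.414, 0.352 and 0.352, where 10.1% of genes with a mean under 1 were at least 2-fold lower. The other way lay Ankrd6 with a ratio of 1.72, Nkd2 with 1.63 and Frat2 with 1.41.

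Of the 7 feedback genes and inhibitors with a mean of at least 1, 5 had a higher mean in Scd2f/f;CC TAL than in control liver and 2 a lower one, where 54.3% of genes with such a mean were higher. Axin2, a general target of CTNNB1, had means of 4.05 in control liver, 4.61 in Scd2f/f TAL and 6.80 in TAL of Scd2f/f;CC mice, and a ratio of 1.48 between the TAL groups. Rnf43, a ubiquitin ligase that removes Frizzled from the membrane, had 14.5, 10.6 and 15.1, with the same order of groups as Fzd8. Znrf3, its relative, had 9.78, 9.36 and 9.85, Nkd1 had 2.13, 2.57 and 2.48 and Kremen1 had 5.18, 5.32 and 6.52. The lower ones were Frzb, with a ratio of 0.761 to control liver, and Igfbp4, with 0.863. These genes were named after their values were seen.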
